A study of Bubalus bubalis with 36 samples.

Results

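Inguinal fat, a subcutaneous depot of the groin, was compared with pericardial fat, a visceral depot around the heart, in the same 6 water buffaloes (Bubalus bubalis). The members are 12 of the 36 small RNA libraries of the series, chosen by the depot in the labels: 6 inguinal (IAT) and 6 pericardial (PCAT) libraries, 1 of each per animal, paired by the buffalo number 1 to 6. The study sampled 6 fat depots per animal, and the remaining 24 libraries came from back (BSAT), sternal (SSAT), omental (OAT) and perirenal (PRAT) fat. Every animal was weaned at 3 months, put on fattening at 15 months and slaughtered at 20 months of age. No genotype, drug or diet group is given, so depot is the only contrast, and the labels give neither breed nor sex. All 1682 features of the count table were compared, of which 695 carried a bovine miRNA name and 987 were candidate loci without one.

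MicroRNAs (miRNAs) are short RNAs cut from hairpin precursors. Bound by an Argonaute protein, they pair with messenger RNAs, mostly through the seed near their 5′ end, and lower the output of those messages. Fat depots arise from different parts of the embryo, and cells taken from them are known to keep position-dependent programs, among them the HOX genes that set identity along the head-to-tail axis. Several miRNAs lie inside the HOX clusters and follow their expression. Other miRNA families mark a cell type, such as miR-200 in epithelium and mesothelium (the cell layer that lines the body cavities) or miR-1 and miR-133 in muscle. In whole tissue, fewer cells of a type and less of an RNA per cell cannot be told apart.

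Library totals ran from 11175382 to 13448792 counted reads in inguinal libraries (mean 12080130 ± 928042, SD, n = 6) and from 11767206 to 13377988 in pericardial libraries (12477219 ± 565545, SD, n = 6). Between 874 and 1020 features had at least 1 read in a library. TMM factors, which scale out differences in composition, ran from 0.753 to 1.03 in inguinal and from 0.915 to 1.18 in pericardial libraries, with IAT5 and IAT1 lowest. The libraries correlated with a median of 0.944 within inguinal, 0.951 within pericardial and 0.928 between the depots. IAT6 stood apart by high miR-200 family and miR-206 and low let-7d, and PCAT1 by low miR-200 family, miR-499, miR-221 and miR-15a. PCAT2 and PCAT5 carry the letter A in their library names where the other 10 carry B. What the letter means is not given in the sources used here.

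Of 532 features with enough reads to be tested, 47 differed between the depots (8.83%; edgeR quasi-likelihood test with the animal as a block, Benjamini-Hochberg adjusted p under 0.05, here "called"). Of these, 24 were higher (4.51%) and 23 lower (4.32%) in inguinal fat, and 35 of the 47 carried a miRNA name. The difference was at least 2-fold for 44 of the 47, and 44 had the same direction in all 6 animals. Both counts are a description, since the calls were made on the same 6 pairs, which partly fixes size and direction. The 6 inguinal libraries lay wholly above the 6 pericardial ones for 11 called features (2.26% of all tested features did so) and wholly below them for 6 (1.69%), 17 in all (3.95%). The features called higher took 11.9 ± 2.22% of the counts of inguinal and 5.37 ± 1.13% of those of pericardial libraries (SD, n = 6 each), whereas those called lower took 0.0742 ± 0.0261% and 0.247 ± 0.0485%. The most abundant of the higher calls was 1 candidate locus without a miRNA name, at 18834 to 97300 CPM (counts scaled to the TMM-adjusted library size) in inguinal and 14241 to 27389 CPM in pericardial libraries, and calls in both directions included scarce features. The split by direction depended on the scaling: 51.1% of calls were higher with TMM factors, 22.8% with library totals alone and 25.4% with limma on log2(RPM + 1), where the median of all features moved from 0.01 to −0.25 and −0.21. Leaving out both libraries of an animal left 28 (animal 1), 19 (animal 2), 35 (animal 3), 17 (animal 4), 11 (animal 5) and 35 (animal 6) calls. All 47 kept their direction in every fit that gave them a value, which calling on the same pairs also partly fixes. Of the 47, 10 were called whichever animal was left out: miR-196a, miR-196b, miR-10a, miR-10b, miR-27a-5p, miR-224, miR-206, miR-335, miR-3065 and 1 candidate locus. Without the pairing by animal there were 33 calls, 27 of them among the 47. The 20 lost were 4 candidate loci, the 3 called miR-200 family members, miR-206, miR-139, miR-204, miR-194, miR-31, miR-2478, miR-455-3p, miR-449a, miR-3065, miR-655, miR-374a, miR-3601 and miR-2284c.

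**Figure D1:**
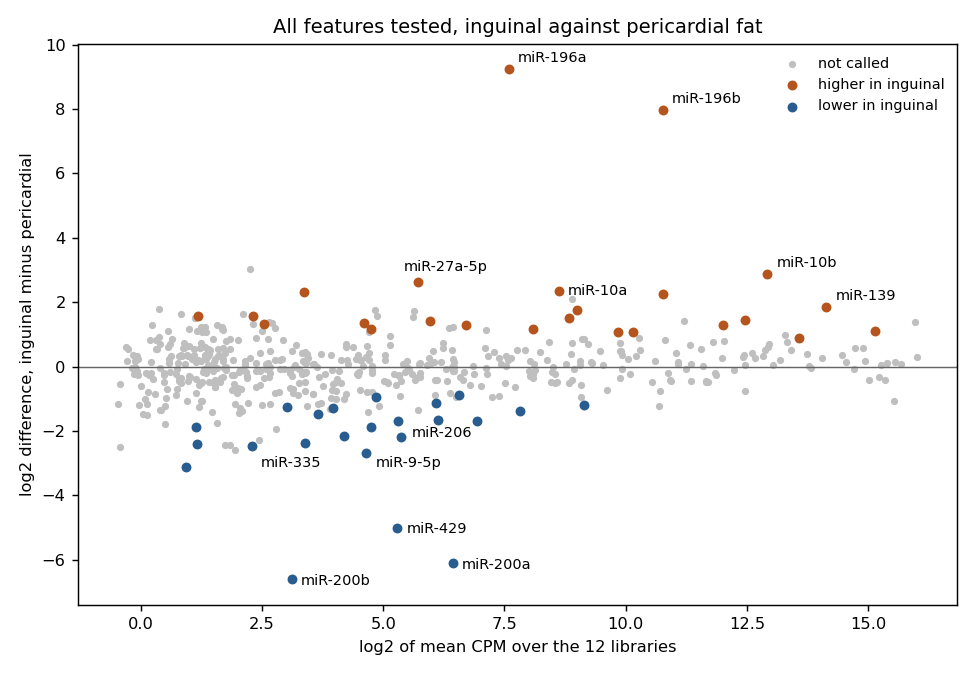
Each point is 1 of the 532 tested features, with the log2 of its mean level (CPM) over the 12 libraries on the x axis and the fitted log2 difference, inguinal minus pericardial, on the y axis. Orange points were called higher and blue points lower in inguinal fat; miR-196a (9.23) and miR-196b (7.97) lie highest and the miR-200 family lowest.

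Among the miRNAs of the HOX clusters, the miR-196 pair had the largest differences of all called features, and the inguinal libraries lay above the pericardial ones for all 4 tested members. The list held 5 members, miR-10a, miR-10b, miR-196a, miR-196b and miR-615, and all 4 that could be tested were called higher in inguinal fat, with a median log2 difference of 5.42 against 0.01 over all tested features. Together the 5 listed members took 13245 to 27981 CPM in inguinal and 1265 to 2650 CPM in pericardial libraries. miR-196b, which lies in the HOX cluster A and targets HOX messages, was at 1834, 2665 and 5995 CPM (lowest, median and highest inguinal library) and at 6.59, 11.6 and 34.6 CPM in pericardial libraries. The groups did not overlap, and every animal had between 6.21 and 9.63 log2 units more in its inguinal sample. The fitted difference was 7.97 ± 0.58 (log2, SE, adjusted p = 8.08e-05, edgeR). miR-196a, its near-identical relative, was at 198, 336 and 618 CPM in inguinal and at 0.0664, 0.644 and 1.81 CPM in pericardial libraries. It was close to absent from pericardial fat, where 1 to 26 reads were counted per library against 2279 to 6261 in inguinal fat. The difference was 9.23 ± 0.74 (log2, SE, adjusted p = 8.08e-05), and its size rests on those few reads.

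miR-10b and miR-10a, which lie in the HOX clusters D and B, differed less but from a higher base. miR-10b was at 10289, 12637 and 20984 CPM in inguinal and at 1100, 2132 and 2474 CPM in pericardial libraries. The difference was 2.88 ± 0.22 (log2, SE, adjusted p = 8.08e-05), with no overlap. miR-10a was at 510, 547 and 1031 CPM in inguinal and at 62.0, 136 and 196 CPM in pericardial libraries, a difference of 2.35 ± 0.25 (log2, SE, adjusted p = 6.48e-04), also with no overlap. So miR-196a was nearly missing from pericardial fat, where miR-196b was low but counted in every library (102 to 495 reads). The miR-10 pair was present in both depots at unequal levels. Because the members of each pair differ by very few bases, reads may have been divided between them in counting. Summed, miR-196a and miR-196b differed by 7.97 ± 0.54 and miR-10a and miR-10b by 2.77 ± 0.22 (log2, SE). The fifth member, miR-615 of the HOX cluster C, had too few reads for the test: 65 reads over 6 inguinal libraries and 4 reads in 1 of the 6 pericardial libraries.

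**Figure D2:**
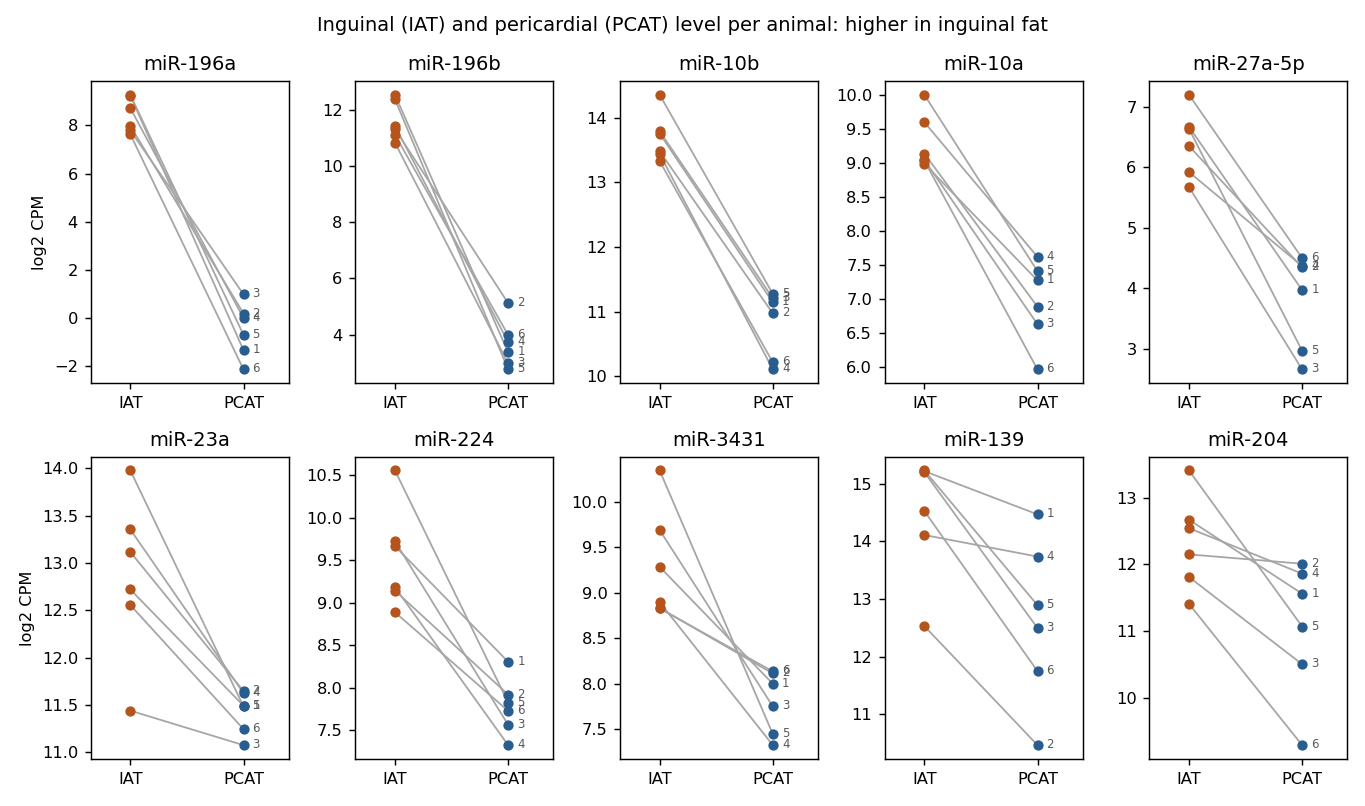
Level (log2 CPM) of 10 miRNAs called higher in inguinal fat, with orange points for inguinal and blue points for pericardial libraries and a grey line joining the samples of each animal, numbered at the right. Each line falls from left to right; the groups do not overlap for the HOX-cluster miRNAs, miR-27a-5p, miR-224 and miR-3431, and they overlap for miR-23a, miR-139 and miR-204.

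Outside the HOX clusters, miR-27a-5p had the largest difference among the named miRNAs called higher. This is the passenger arm of a precursor that lies in a cluster with miR-23a and miR-24, and whose guide arm, miR-27a-3p, is known to restrain fat cell formation by targeting PPARG, the regulator of adipocyte differentiation. miR-27a-5p was at 50.8, 90.3 and 147 CPM in inguinal and at 6.13, 17.8 and 22.4 CPM in pericardial libraries. The groups did not overlap, and the difference was 2.62 ± 0.32 (log2, SE, adjusted p = 0.00146). miR-27a-3p was at 11059, 14939 and 21897 CPM against 6590, 8083 and 11205 CPM, with a difference of 0.90 ± 0.21 (adjusted p = 0.0334) and the highest pericardial library just above the lowest inguinal one. The neighbour miR-23a was at 2775, 7810 and 16133 CPM against 2154, 2869 and 3203 CPM, with IAT3 inside the pericardial range, and differed by 1.43 ± 0.29 (adjusted p = 0.0228). Of the 8 tested members of the miR-23, miR-27 and miR-24 clusters, these 3 were called higher and none lower, with a median of 0.74. Over all tested features 4.51% were called higher.

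Both smaller calls of that cluster were less firm. miR-27a-3p was not called when any 1 animal was left out (0.73 to 0.93, adjusted p up to 0.139). miR-23a was not called without animal 2, 4 or 5 (1.4, 1.2 and 1.5, with adjusted p of 0.0708, 0.0746 and 0.0665). When near-identical miRNAs were summed, miR-23a with miR-23b-3p differed by 1.07 ± 0.42 (adjusted p = 0.172) and miR-27a-3p with miR-27b by 0.61 ± 0.17 (adjusted p = 0.0580), so neither sum was called. miR-27a-5p was called in every fit.

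A list of miRNAs known to hold back adipogenesis was matched by precursor, so it counts both arms, also those without that record. It had 17 tested members, of which 5 were called higher and none lower, with a median of 0.28. These were both arms of miR-27a, miR-224, miR-193a-5p and miR-31. The other arm of miR-193a, miR-193a-3p, differed by 0.0089 ± 0.32. Over all tested features 4.51% were called higher and 4.32% lower. miR-224, an intronic miRNA reported to act on fatty acid metabolism, was at 474, 697 and 1508 CPM in inguinal and at 160, 219 and 316 CPM in pericardial libraries. The groups did not overlap, and the difference was 1.75 ± 0.28 (log2, SE, adjusted p = 0.00889). miR-452, from the same host gene, differed by 1.07 ± 0.44 (adjusted p = 0.182) at 0.869 to 7.01 CPM. miR-193a-5p ran from 1014 to 2106 CPM in inguinal and from 600 to 947 CPM in pericardial libraries, without overlap (1.07 ± 0.25, adjusted p = 0.0341). miR-31 ran from 16.5 to 51.2 CPM and from 4.01 to 32.4 CPM, with overlap (1.35 ± 0.33, adjusted p = 0.0375). With library totals alone the list's median was 0.01, with 2 members called higher and 1 lower. Leaving out animal 1, 2, 3, 4 or 5 left 2 members called and leaving out animal 6 left 4. miR-193a-5p was not called without animal 1, 2, 3, 4 or 5 (0.90 to 1.13), nor was miR-31 (1.06 to 1.53).

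The list of miRNAs known to favour adipogenesis had 21 tested members, of which miR-204 was called higher and miR-335 lower, with a median of −0.16. That is close to the shares over all tested features, 4.51% higher and 4.32% lower. miR-204, which targets RUNX2 and so turns precursor cells from bone to fat, was at 2721, 5256 and 10854 CPM in inguinal and at 629, 2587 and 4126 CPM in pericardial libraries. The ranges overlapped, every animal had more in its inguinal sample, and the difference was 1.28 ± 0.32 (adjusted p = 0.0392). It was called without animal 2 but not without animal 1, 3, 4, 5 or 6 (1.05 to 1.33, adjusted p up to 0.118). Members that did not pass the test included miR-143, with a difference of 0.58 ± 0.23 (adjusted p = 0.179), and miR-148a, with −0.73 ± 0.32 (adjusted p = 0.219). miR-30a-5p differed by −0.76 ± 0.26 (adjusted p = 0.121). In the list for brown and beige fat, 3 of 20 tested members were called higher (miR-196a, miR-455-3p and miR-193a-5p) and none lower, with a median of −0.01. miR-196a and miR-455 are known from mice to promote thermogenic fat and miR-193a belongs to a family needed for it. miR-455-3p ran from 682 to 1882 CPM in inguinal and from 322 to 917 CPM in pericardial libraries (1.09 ± 0.22, adjusted p = 0.0228), and was not called without animal 2, 3, 4 or 5 (0.90 to 1.14). The pro-adipogenic, anti-adipogenic and brown fat lists each held members on both sides of 0.

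Among the remaining named calls, miR-139 was the most abundant. It is enriched in endothelium and its host gene is PDE2A, and it was at 5923, 30682 and 38462 CPM in inguinal and at 1413, 6693 and 22684 CPM in pericardial libraries. IAT2 was the lowest inguinal library and lay inside the pericardial range. The difference was 1.85 ± 0.38 (log2, SE, adjusted p = 0.0243), and 1.76 and 1.73 without animals 2 and 5, when it was not called (adjusted p = 0.0583 and 0.0790). Of the endothelial list, all 5 tested members had positive differences (median 0.49) and only miR-139 was called. miR-126-3p, the main endothelial miRNA, differed by 0.35 ± 0.21 (adjusted p = 0.364) at 18172 to 30561 CPM in inguinal and 16887 to 22421 CPM in pericardial libraries. Summed, the list took 37896 to 70959 CPM in inguinal and 22936 to 45456 CPM in pericardial libraries, and its part in the other results was not tested.

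miR-3431 ran from 453 to 1298 CPM in inguinal and from 160 to 280 CPM in pericardial libraries, without overlap (1.51 ± 0.33, adjusted p = 0.0254). miR-194, better known from liver and gut, ran from 157 to 731 CPM and from 51.9 to 219 CPM (1.17 ± 0.25, adjusted p = 0.0254), with PCAT2 far below the other pericardial libraries. Its cluster partner miR-192 differed by 0.12 ± 0.22 (adjusted p = 0.783), and the difference between the partners was not tested. miR-2478 was called at 1.16 ± 0.25 (adjusted p = 0.0254), with IAT1 at 86.6 CPM and the other inguinal libraries between 21.7 and 35.4 CPM. These 3 calls were each lost without 4 of the animals: miR-3431 without animal 1, 3, 4 or 5 (1.23 to 1.58), miR-194 without animal 1, 2, 4 or 5 (1.0 to 1.2) and miR-2478 without animal 1, 2, 4 or 5 (1.04 to 1.15).

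On the pericardial side, the miR-200 family had the largest differences. The family, made from 2 clusters, keeps cells epithelial by repressing ZEB1 and ZEB2, and 3 of its 4 tested members were called lower in inguinal fat, with a median of −5.56. miR-200a was at 0.494, 0.787 and 36.9 CPM in inguinal and at 1.65, 155 and 320 CPM in pericardial libraries. The difference was −6.11 ± 1.29 (log2, SE, adjusted p = 0.0254). miR-429 was at 0.409, 0.684 and 24.7 CPM against 0.392, 81.5 and 140 CPM (−5.0 ± 1.23, adjusted p = 0.0380). miR-200b had no read in 4 of the 6 inguinal libraries and a median of 17.4 CPM in pericardial libraries (−6.60 ± 1.23, adjusted p = 0.0226). The groups overlapped for each of them, through the same 2 libraries: IAT6 held 36.9 CPM of miR-200a where the other inguinal libraries held at most 1.13 CPM, and PCAT1 held 1.65 CPM where the other pericardial libraries held at least 62.7 CPM. The members of the other cluster, miR-200c (−0.57 ± 0.52, adjusted p = 0.559) and miR-141 (34 reads in all inguinal and 187 in all pericardial libraries, not tested), did not pass or were too scarce.

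The miR-200 calls depended on the fit. Without animal 1, miR-200a, miR-200b and miR-429 differed by −6.95, −6.60 and −5.80 and were called. Without animal 6, miR-200a differed by −6.93 and was called, and miR-200b and miR-429 did not pass the filter on low counts and were not tested. Without animal 2, 3, 4 or 5, none of the 3 was called: miR-200a ranged from −6.15 to −5.46, miR-200b from −6.59 to −5.82 and miR-429 from −5.33 to −4.31. Without the pairing by animal they differed by −4.61, −4.34 and −3.99 (adjusted p = 0.0693, 0.106 and 0.101). In the 4 animals whose libraries all carry the letter B, they differed by −4.59, −5.53 and −3.49 (adjusted p = 0.176, 0.176 and 0.235). Of other epithelial miRNAs, miR-375 ran from 0.225 to 250 CPM in inguinal and from 0.314 to 63.1 CPM in pericardial libraries, and neither it nor miR-183 was called.

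**Figure D3:**
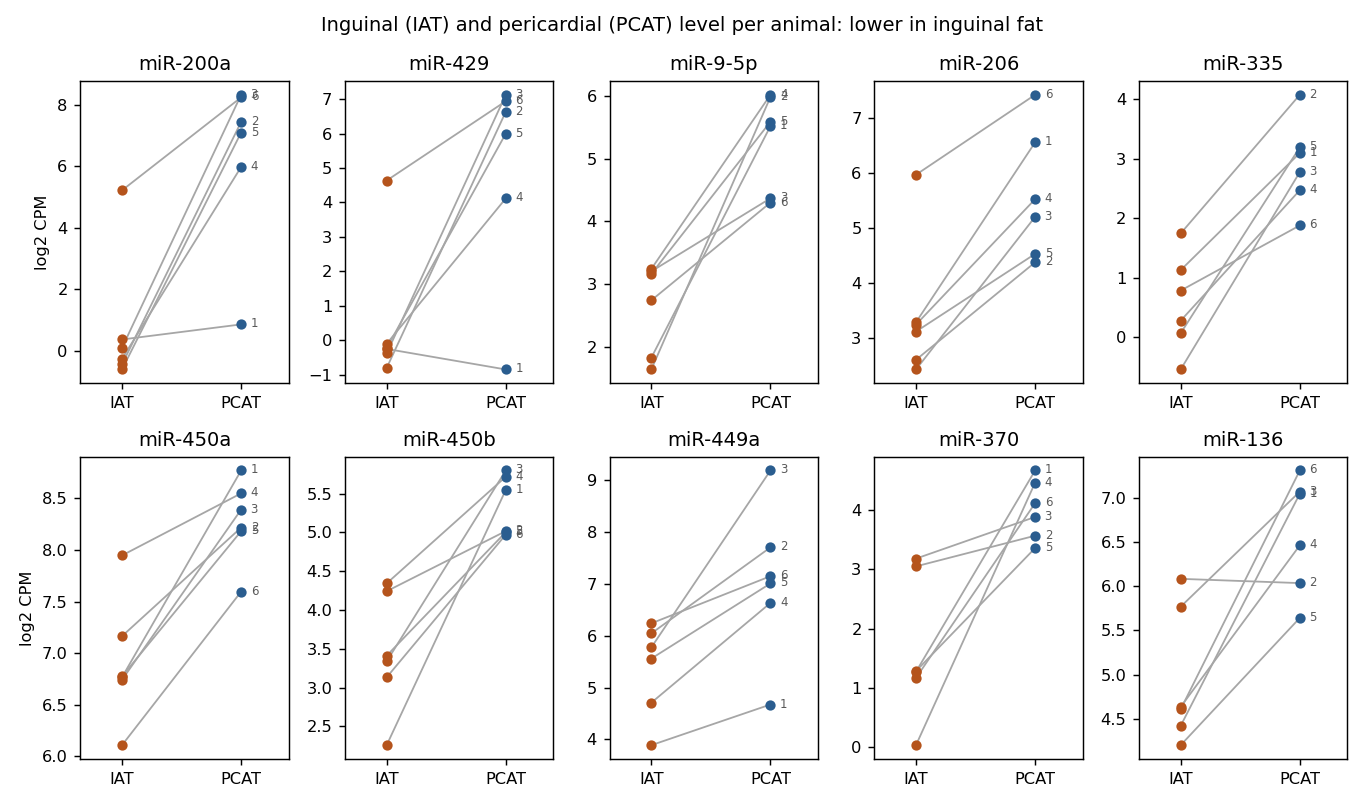
Level (log2 CPM) of 10 miRNAs called lower in inguinal fat, drawn with orange points for inguinal and blue points for pericardial libraries and grey lines joining the samples of each animal. For miR-200a and miR-429 the inguinal sample of animal 6 is high and the pericardial sample of animal 1 is low; for miR-9-5p, miR-335, miR-450b and miR-370 the groups do not overlap.

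miR-9-5p, best known from the nervous system, was at 2.95, 7.65 and 9.29 CPM in inguinal and at 19.5, 46.9 and 64.7 CPM in pericardial libraries. The groups did not overlap, and the difference was −2.67 ± 0.47 (log2, SE, adjusted p = 0.0137). It was −2.79 and −2.74 without animals 4 and 5, just past the threshold (adjusted p = 0.0501 and 0.0583). Of the 10 tested neural miRNAs it was the only one called: miR-218 differed by −0.88 ± 0.45 (adjusted p = 0.283) and miR-129 by 1.10 ± 0.50 (adjusted p = 0.226). miR-335, which lies in the imprinted gene MEST and is reported to be higher in the fat of obese mice, was scarce, at 0.527, 1.31 and 3.19 CPM in inguinal and at 3.52, 7.54 and 16.7 CPM in pericardial libraries. It did not overlap and differed by −2.46 ± 0.40 (adjusted p = 0.00889).

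miR-206, a miRNA of skeletal muscle, was at 5.2, 8.89 and 62.6 CPM in inguinal and at 20.6, 41.4 and 172 CPM in pericardial libraries. Every animal had less in its inguinal sample, although IAT6 lay inside the pericardial range. The difference was −2.18 ± 0.32 (adjusted p = 0.00552) and −2.38 without animal 6. Without the pairing by animal it was −1.96 and not called (adjusted p = 0.142). The other tested muscle miRNAs did not pass: miR-499 differed by −0.72 ± 0.33 (adjusted p = 0.241), miR-133a by −0.48 ± 0.57 (adjusted p = 0.676) and miR-1 by 0.12 ± 0.38 (adjusted p = 0.875). The 7 listed muscle miRNAs, tested or not, together took 44.5 to 142 CPM in inguinal and 82.3 to 287 CPM in pericardial libraries. Heart-defining miR-208a had 4 reads in all inguinal and 3 in all pericardial libraries, and miR-208b had 17 and 38. The part of muscle RNA in the miR-206 result was not tested.

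The large imprinted cluster between DLK1 and DIO3, whose miRNAs are expressed from the maternal chromosome, leaned to pericardial fat. Of its 55 listed members, 33 were tested, 32 had a negative difference, and 4 were called lower and none higher, with a median of −0.78. Over all 532 tested features, 264 had a negative difference and 4.32% were called lower. miR-370 was at 0.862, 2.26 and 8.89 CPM in inguinal and at 10.1, 15.9 and 25.2 CPM in pericardial libraries, without overlap (−2.37 ± 0.59, adjusted p = 0.0377). miR-136 was at 18.3, 24.5 and 67.6 CPM against 49.8, 110 and 158 CPM (−1.66 ± 0.38, adjusted p = 0.0321), lower in 5 of 6 animals. miR-411c-3p (−1.49 ± 0.33, adjusted p = 0.0254) and miR-655 (−1.29 ± 0.31, adjusted p = 0.0375) were the others called. The shared direction is a description, since the members come from few long transcripts and are not independent. With library totals alone 9 members were called lower and with RLE factors 3. None was called without animal 1 or animal 5, when the cluster's median was −0.79 and −0.84. Without animal 4 or animal 6 there was 1 call, and without animal 2 there were 3. miR-370 and miR-136 were each not called without animal 1, 4, 5 or 6 (−2.44 to −2.09 and −1.75 to −1.44), miR-411c-3p without animal 1, 4 or 5 (−1.65 to −1.44) and miR-655 without animal 1, 2, 3, 5 or 6 (−1.42 to −1.16). Summed, the 55 listed members of the cluster, tested or not, took 15135 to 52775 CPM in inguinal and 28327 to 53792 CPM in pericardial libraries, which overlap.

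The cluster of miR-424, miR-503, miR-450 and miR-542 on the X chromosome, linked to growth arrest and differentiation, had 5 tested members, all with negative differences (median −1.37) and 2 of them called. Over all tested features 4.32% were called lower. miR-450a was at 68.8, 109 and 247 CPM in inguinal and at 193, 317 and 437 CPM in pericardial libraries (−1.37 ± 0.25, adjusted p = 0.0149), where IAT4 reached into the pericardial range. miR-450b was at 4.62, 10.2 and 20.1 CPM against 31.2, 39.4 and 55.5 CPM, without overlap (−1.89 ± 0.35, adjusted p = 0.0169). miR-424-3p (−1.21 ± 0.33, adjusted p = 0.0509) and miR-542-5p (−1.41 ± 0.39, adjusted p = 0.0567) lay just outside the threshold. Without animal 5 the 2 calls were lost, at −1.38 and −1.97 (adjusted p = 0.0598 and 0.0617), and with library totals alone 4 of the 5 were called.

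Further named miRNAs called lower in inguinal fat were miR-3065, miR-449a, miR-2285bb, miR-374a, miR-3601, miR-338 and miR-2284c. miR-3065 ran from 8.0 to 41.7 CPM in inguinal and from 25 to 142 CPM in pericardial libraries (−1.69 ± 0.32, adjusted p = 0.0169). miR-449a, of a family that promotes multiciliated cells, ran from 14.6 to 75.4 CPM and from 25.3 to 585 CPM (−1.67 ± 0.36, adjusted p = 0.0254), and was not called without animal 2, 4 or 5 (−1.76 to −1.72). Its relative miR-34a differed by −0.48 ± 0.40 (adjusted p = 0.521). miR-2285bb ran from 1.58 to 17.7 CPM and from 17.1 to 36.7 CPM (−2.15 ± 0.45, adjusted p = 0.0254), and was not called without animal 2, 4 or 5 (−2.29 to −2.12). It belongs to the large miR-2284 and miR-2285 family of ruminants, of which 22 of 113 members in the table were tested, 2 were called lower and none higher, with a median of −0.17. Over all tested features 4.32% were called lower. The calls of miR-338 (−1.87 ± 0.42), miR-374a (−1.14 ± 0.28), miR-3601 (−1.20 ± 0.32) and miR-2284c (−2.41 ± 0.64) had adjusted p between 0.0312 and 0.0495. They were lost without animal 1, 2 or 4 (miR-338, −1.89 to −1.79), without animal 1, 2, 3, 5 or 6 (miR-374a, −1.20 to −0.99), without animal 1, 2, 4, 5 or 6 (miR-3601, −1.41 to −0.92) and without any 1 animal (miR-2284c, −2.92 to −2.02).

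Most of the abundant families did not pass the test. The 10 let-7 members, which restrain proliferation, had differences between 0.03 and 0.40 with no call (median 0.14). They were all positive with TMM factors, but with library totals alone the median was −0.13 and 7 were negative, so no direction is given. No member was called among the families of miR-29 (5 tested, median −0.17), miR-30 (6 tested, median −0.34), miR-181 (4 tested, median 0.02), miR-26 (3 tested, median −0.03) and miR-148 and miR-152 (4 tested, median 0.14), nor in the miR-17-92 cluster with its paralogues (12 tested, median −0.30). The erythroid list (3 tested, median −0.43) and the leukocyte list (8 tested, median −0.53) had no call either. miR-451 of red cells ran from 15758 to 76313 CPM in inguinal and from 27050 to 86279 CPM in pericardial libraries. Among leukocyte miRNAs miR-142-3p differed most, by −2.29 ± 0.66 (adjusted p = 0.0661). The 7 miRNAs of smooth muscle and stroma had a median of 0.19, which was −0.07 with library totals alone, and no call.

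**Figure D4:**
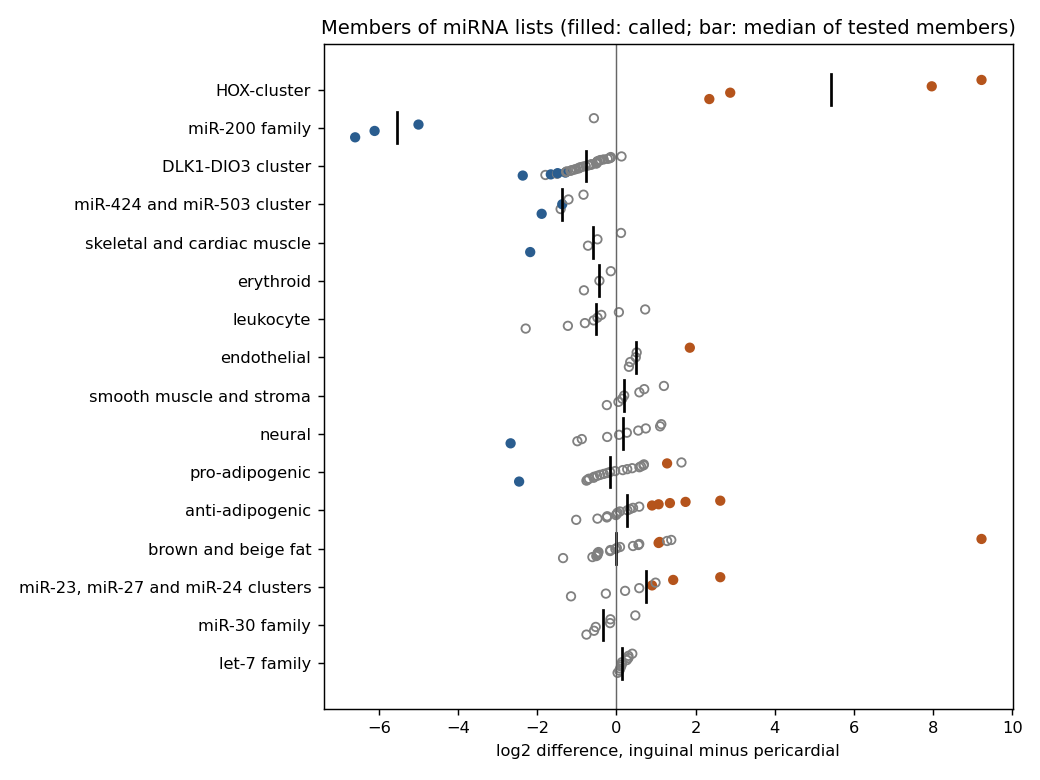
Fitted log2 differences, inguinal minus pericardial, of the tested members of 16 miRNA lists (circles; filled orange if called higher, filled blue if called lower, open if not called), with a vertical bar at each list's median. The HOX-cluster list lies to the right (median 5.42), the miR-200 family to the left (median −5.56), and the DLK1-DIO3 cluster lies mostly left of 0 (median −0.78).

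miR-26a and miR-26c, a near-identical pair among the most abundant miRNAs, divided their counts in a way that split the libraries of both depots. miR-26a took 91.98% to 97.2% of the pair's counts in 6 libraries (IAT1, IAT3, IAT5, IAT6, PCAT1 and PCAT6) and 10.2% to 18.6% in the other 6 (IAT2, IAT4, PCAT2, PCAT3, PCAT4 and PCAT5). Each alone therefore varied more than 5-fold within both depots, and neither was called. Their sum was steady, at 123019 ± 20578 CPM in inguinal and 99841 ± 18966 CPM in pericardial libraries (SD, n = 6 each), and differed by 0.24 ± 0.14 (log2, SE, adjusted p = 0.344).

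Candidate loci without a miRNA name made up 12 of the 47 calls, 8 higher and 4 lower. NC_059159.1_8293 was at 1792, 2914 and 4193 CPM in inguinal and at 268, 701 and 858 CPM in pericardial libraries, without overlap (2.26 ± 0.22, adjusted p = 3.74e-04), and was called in each fit that included candidate loci. NC_059164.1_21941 ran from 11.7 to 26.9 CPM and from 1.74 to 6.91 CPM (2.32 ± 0.42, adjusted p = 0.0149), and was lost without animal 5 (2.16, adjusted p = 0.0665). Where both arms of a precursor were tested, 15 of 24 precursors had arms with the same sign. In each of the 4 with a called arm (miR-27a, miR-193a, miR-411c and miR-455) both arms had the same sign. For miR-193a-3p (0.0089 ± 0.32) and miR-455-5p (0.09 ± 0.39) the difference was smaller than its SE, so the sign says little. The remaining partner arm, miR-411c-5p, differed by −0.95 ± 0.33 and was not called, whereas both arms of miR-27a were called.

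Both depots were then set against the mean of the other 4 in a fit over all 36 libraries (667 features tested, animal as block), to show which of them departs from fat elsewhere. These comparisons share the 4 depots and share libraries with the direct comparison, so each is given by its own values. Inguinal fat differed from the other 4 in 2 features (0.3%), miR-196a (3.26 ± 0.43, adjusted p = 1.55e-05) and miR-196b (2.51 ± 0.43, adjusted p = 8.49e-04), both higher; without the animal block 1 was called. Pericardial fat differed from the other 4 in 73 features (10.9%), 54 higher (8.1%) and 19 lower (2.85%), with 44 calls without animal 5 and 42 in the letter B libraries. The HOX-cluster miRNAs were lower there: miR-196a by −5.93 ± 0.74, miR-196b by −5.78 ± 0.67, miR-10a by −2.81 ± 0.30 and miR-10b by −2.56 ± 0.24 (log2, SE, each with an adjusted p below the threshold). For miR-10b inguinal fat differed from the other 4 by 0.14 ± 0.20 (adjusted p = 0.861), and for miR-10a by −0.57 ± 0.26 (adjusted p = 0.556). Hence the miR-10 difference between the depots came with a low pericardial level. The miR-196 difference came with a low pericardial level and an inguinal level above the mean of the other 4. That mean took in omental fat, where miR-196b had a mean log2 CPM of 4.75. Perirenal fat was at 11.3, back at 10.8 and sternal at 9.84, against 11.5 in inguinal fat.

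The order of the 6 depots shows which of them lay close to inguinal fat. Mean miR-196b was 3229 ± 1633 CPM in inguinal, 2629 ± 1198 in perirenal, 2143 ± 1342 in back, 1181 ± 1003 in sternal, 85.9 ± 156 in omental and 14.9 ± 11.1 in pericardial fat (SD, n = 6 each). The first 4 overlapped in their ranges, as did omental with pericardial fat, and every library of the first 4 depots lay above every omental and pericardial one. Mean miR-196a was 359.9 ± 176 CPM in inguinal, 216 ± 84.0 in perirenal, 124 ± 77.5 in back, 18.0 ± 7.14 in sternal, 7.82 ± 13.3 in omental and 0.728 ± 0.644 in pericardial fat (SD, n = 6 each). Neighbours in this order overlapped except back and sternal fat. For miR-10b, pericardial fat (1916 ± 631 CPM) lay below all other depots without overlap, and omental fat came next (6180 ± 2638 CPM, SD, n = 6). Of the 24 features called higher in inguinal fat, the pericardial mean was the lowest of the 6 depots for 18 and the inguinal mean the highest for 9. Of the 23 called lower, the pericardial mean was the highest for 22 and the inguinal mean the lowest for 6. These counts are a description: the features were chosen for a gap between the same 2 depots, which partly fixes their ranks among the 6.

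miR-9-5p (2.41 ± 0.29, adjusted p = 2.82e-07), miR-335 (1.73 ± 0.44, adjusted p = 0.00788), miR-450a (1.29 ± 0.25, adjusted p = 4.28e-04) and miR-370 (2.39 ± 0.41, adjusted p = 1.06e-04) were higher in pericardial fat than in the other 4 depots. For the same 4 miRNAs inguinal fat differed from the other 4 depots by −0.82 to −0.11 with no call. The miR-200 family varied widely in the visceral depots: miR-200a reached 1562 CPM in a perirenal and 350.4 CPM in an omental library, against at most 31.6 CPM in back and 10.8 CPM in sternal fat. In pericardial fat miR-200a was higher than the mean of the other 4 by 3.58 ± 0.90 (adjusted p = 0.00671), and miR-206, with 1 back library at 2228 CPM, by 1.43 ± 0.77 (adjusted p = 0.289).

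**Figure D5:**
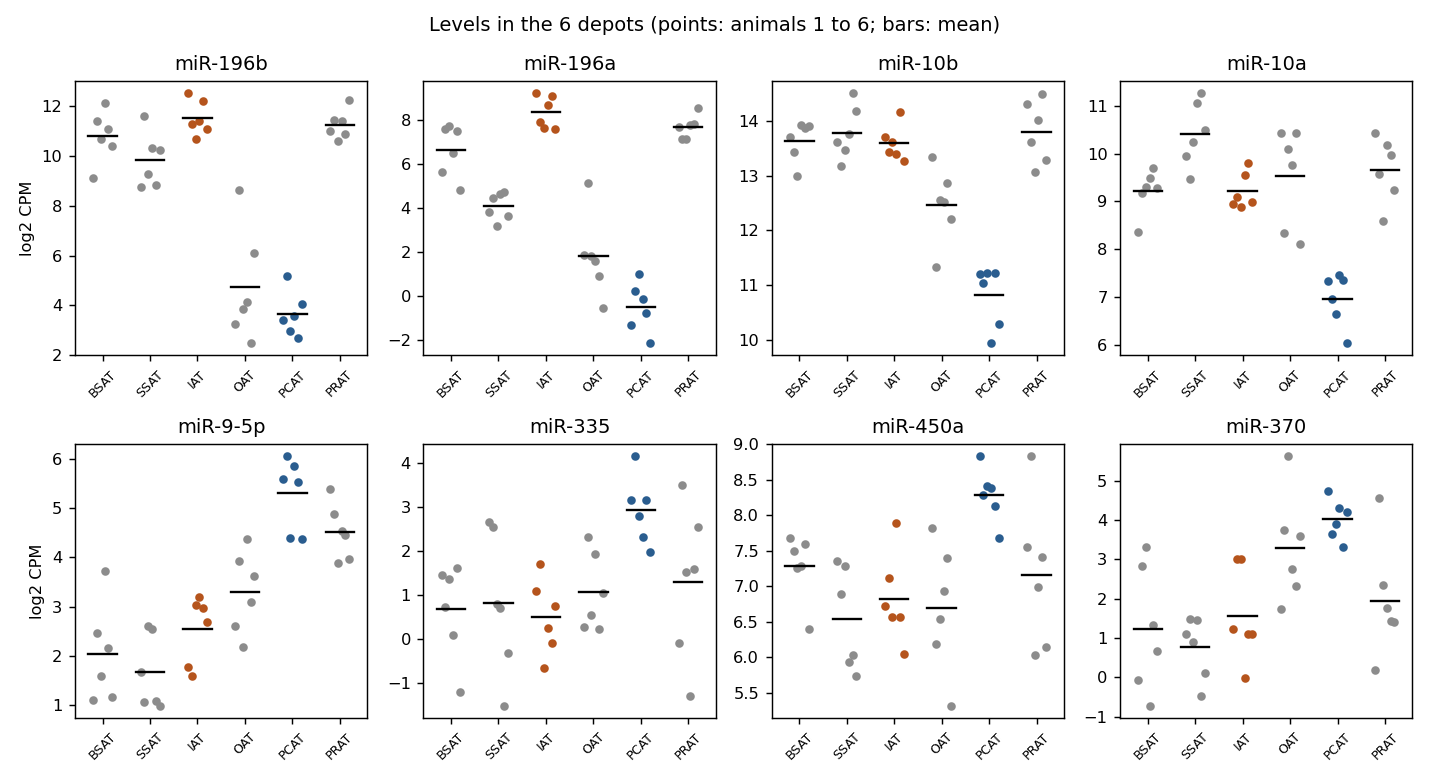
Level (log2 CPM) of 8 miRNAs in back (BSAT), sternal (SSAT), inguinal (IAT, orange), omental (OAT), pericardial (PCAT, blue) and perirenal (PRAT) fat, with a point for each of the 6 animals and a bar at the mean. Pericardial fat has the lowest mean of the 4 HOX-cluster miRNAs and the highest mean of miR-9-5p, miR-335, miR-450a and miR-370, and inguinal fat has the highest mean of miR-196a and miR-196b.

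The gap between inguinal and pericardial fat was also compared with another gap. This was the mean of the other subcutaneous depots (back, sternal) minus the mean of the other visceral depots (omental, perirenal). The 2 gaps differed for 6 of 667 features (0.9%), all with the inguinal-pericardial gap more positive. The excess was 8.89 ± 0.93 for miR-196a (adjusted p = 1.04e-07), 6.18 ± 0.79 for miR-196b (3.37e-06), 2.13 ± 0.31 for miR-10b (3.61e-05) and 2.06 ± 0.39 for miR-10a (0.00134) on the log2 scale. The candidate locus NC_059159.1_8293 (2.00 ± 0.36, adjusted p = 7.48e-04) and miR-885 (2.21 ± 0.56, adjusted p = 0.0470) completed them. miR-885 was not called in the direct comparison (0.35 ± 0.52, adjusted p = 0.728). For these HOX-cluster miRNAs, inguinal and pericardial fat were thus further apart than the means of the other depots of the same 2 classes. For the miR-196 pair the visceral mean joined unlike depots. The mean log2 CPM of miR-196b was 4.75 in omental and 11.3 in perirenal fat, against 10.8 in back and 9.84 in sternal fat.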

How the data were processed

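Small RNA reads of inguinal and pericardial fat of 6 buffaloes (12 libraries), with 24 libraries of 4 further depots used for context, were analysed from a table that the authors deposited. RNA was extracted with a lipid tissue kit and libraries were made with a TruSeq RNA kit, per the labels' protocols. The authors deposited whole-number read counts per feature, not normalized. They also deposited RPM values, scaled by each library's total, which equalled count over total to within 4.79e-06. For the aligner, the miRNA caller and the build of the genome the answer is the same: not given in the sources used here. Per the submitters' processing notes DESeq2 1.24.0 was among the tools, without a stated role. A blank row held 0 counts and was left out. Candidate loci took 23.3% of the 12 libraries' counts. No mature sequences or coordinates are given.

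Counts were tested in R 4.3.3 with edgeR 4.0.16 (TMM factors, filterByExpr with a minimum count of 10, robust quasi-likelihood fit, two-sided) with 1 coefficient per depot and the animal as a block (5 residual degrees of freedom). The 36-library fit had 25. Adjustment was by Benjamini-Hochberg over all tested features (532 or 667), with a threshold of 0.05. Each SE was obtained as the absolute log2 difference over the root of its quasi-likelihood F. Log2 CPM used a prior count of 2. The pairing comes from the same animals giving both depots. After subtracting depot means, libraries of 1 animal had an average correlation of 0.276, and 5 of 6 pairs exceeded 0.1. Those of different animals averaged −0.0546, a value that the subtraction largely fixes once the first is known. For 4 of 6 inguinal libraries the best correlated pericardial library came from the same animal. All pairs of libraries differed by more than sampling noise (smallest chi-square per degree of freedom 826). Relative counting error is larger at low counts. The fit of the direct comparison was tested on simulated data, and the other fits were not. The simulated counts were drawn independently for each feature with the fitted spread. They held no outlying library and no correlated cluster, so the test does not cover these.

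Named miRNAs were the 12 with the largest difference in each direction among called miRNAs averaging 10 CPM or more and agreeing in sign in 5 or 6 animals, 2 candidate loci in each direction, all tested HOX-cluster, muscle and miR-200 members, the 5 most abundant miRNAs and up to 4 members with the smallest p of every other list. Other called miRNAs, miR-885 and list members too scarce to test were named after their values were seen. The groups, members and 29 lists were chosen with earlier results of these data known. Lists were matched on the precursor name, so either arm of a listed miRNA counts as a member. Alternatives were RLE factors (the scaling of DESeq2), no filter, a filter at an average of 10 CPM, library totals alone, no replicate block, all 36 libraries, letter B libraries alone, limma 3.58.1 on log2(RPM + 1), DESeq2 1.42.0, named features only, and each animal left out. After the data were seen, near-identical miRNAs were summed and animals 1 and 5 were left out together.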

Additional observations from a re-analysis of the deposited data

Results flagged for a closer look

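Among 119 features checked in each depot (238 groups of 6 libraries), 16 groups held a library far from the other 5, measured by its gap to the nearest library divided by the group's whole range on the log2 CPM scale (Dixon's criterion at the 95% level). Chance flags about 1 in 20 groups, or 11.9 of these 238.

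IAT6 accounts for 6 of the 16. It was high in miR-200a (gap 0.833; 36.9 CPM against at most 1.13), miR-429 (0.871; 24.7 against at most 0.767), miR-200b (0.860; 4.69 against at most 0.0988), miR-200c (0.830; 14.3 against at most 3.27) and miR-206 (0.758; 62.6 against at most 9.57). It was low in let-7d (0.846; 3251 against at least 7365 CPM).

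PCAT1 accounts for 5. It was low in miR-200a (0.686; 1.65 CPM against at least 62.7), miR-200b (0.673; no reads against at least 5.67), miR-499 (0.668; 8.63 against at least 24.1), miR-221 (0.637; 0.863 against at least 5.85) and miR-15a (0.699; 40.3 against at least 113).

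PCAT2 was low in miR-194 (0.726; 51.9 against at least 147 CPM) and high in miR-338 (0.642; 8.46 against at most 3.25). PCAT5 was high in miR-106b (0.776; 92.3 against at most 69.1), PCAT4 in miR-92b (0.704; 28.3 against at most 15.1) and IAT1 in miR-2478 (0.648; 86.6 against at most 35.4).

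The gap between inguinal and pericardial fat differed from the gap between the means of the other subcutaneous and visceral depots, by a test of the difference in edgeR, for miR-196a (8.89 on the log2 scale), miR-196b (6.18), miR-10b (2.13), miR-10a (2.06) and the candidate locus NC_059159.1_8293 (2.00).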

How the results depend on the processing

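The count of 47 calls was 42 with RLE factors, 57 with library totals alone, 72 without a filter, 47 with a filter at an average of 10 CPM, 71 with limma, 88 with DESeq2 (62 features without an adjusted p) and 38 with named features only. It was 33 with no replicate block for the pairing, 37 with all 36 libraries and the block, and 23 with all 36 libraries and no replicate block. It was 8 in the letter B libraries alone (animals 1, 3, 4 and 6). Leaving out each animal in turn gave 11 to 35. Of the alternatives chosen after seeing the data, summing near-identical miRNAs gave 46 and leaving out animals 1 and 5 gave 9. Smaller sets hold fewer animals and fewer degrees of freedom; the cause of the other changes was not tested. No call changed direction in any of these fits, which share libraries with the fit that made the calls. miR-196a, miR-196b, miR-10a, miR-10b, miR-27a-5p and NC_059159.1_8293 were called in every fit that gave them a value. For inguinal fat against the other 4 depots the 2 calls became 1 with no replicate block. For pericardial fat the 73 calls became 48 with a filter at an average of 10 CPM and 42 in the letter B libraries, and ranged from 44 to 85 with each animal left out. The 6 features whose gap differed became 10 with RLE factors and 5 to 9 with each animal left out. Every alternative listed was run. Depth limits the scarce members: 9 of the 47 calls had a mean under 10 CPM.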
